A study of Homo sapiens with 6 samples.

Results

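The genes described here encode factors of nonsense-mediated mRNA decay (NMD): UPF1, UPF2, UPF3A, UPF3B, SMG1, SMG5, SMG6, SMG8 and SMG9. They were chosen by gene symbol, and each of the 9 had a row among the 26255 genes of the deposited tables. RNA was sequenced from 22RV1 cells, an established human line of castration-resistant prostate cancer (CRPC), grown in medium with serum. The vehicle group was treated with DMSO and the other group with bruceantin (BCT) at 10 nM, both for 24 h, with 3 samples in each group. The labels do not say whether the 3 samples of a group came from separate cultures, so p-values measure only the spread between these samples, which may be technical. All cells came from a single line, and in bulk RNA a change in the number of cells of a kind cannot be told apart from a change in RNA per cell.

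NMD is a cytoplasmic pathway that degrades mRNAs on which translation stops at a codon read as premature, and it therefore acts only on mRNAs that are being translated. The RNA helicase UPF1 joins the release factors at the stalled ribosome, UPF2 and UPF3B connect it to exon junction complexes left downstream by splicing, and the kinase SMG1, held by SMG8 and SMG9, phosphorylates UPF1. Phosphorylated UPF1 recruits SMG6, an endonuclease, and SMG5, which leads to removal of the poly(A) tail and the cap. The mRNAs of several NMD factors are themselves known targets of the pathway, which forms a feedback loop. BCT is a quassinoid, a plant-derived class of compounds known to inhibit protein synthesis. The study reports that BCT binds the chaperone HSP90 and inhibits its function. Whether either action bears on the values given here was not tested.

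Expression is given as FPKM (the number of fragments scaled by transcript length and by library size), so that levels can be compared between genes. A fold change is the difference of mean log2(FPKM + 0.1), BCT minus DMSO, and it understates the change of low genes. The test was limma with Benjamini-Hochberg adjustment over the 12729 genes whose mean reached 1 FPKM, and a gene was called at an absolute log2 fold change above 0.85 with an FDR below 0.05. All 9 NMD factor genes passed the filter on low values. FPKM keeps no read counts, so the depth behind a value is unknown. From the steps of low values, relative depth was 0.877 to 1 with DMSO and 1.06 to 1.13 with BCT. The FPKM sum per sample ran from 757534 to 1572321, and MIR6087 alone took 43.5% to 55.3% of the sum with DMSO and 31.7% to 32.5% with BCT. The 10 markers fixed for prostate epithelium and 22RV1 were each at 8.03 FPKM or more with DMSO. Of 7 markers of fibroblasts, leukocytes and endothelium, 6 were at 0.177 FPKM or less in every sample, and COL1A1 was at 1.43 ± 0.175 FPKM with DMSO and 5.83 ± 0.69 with BCT (SD, n = 3 each). The summed level of these 7 markers was 1.54 to 1.63 FPKM with DMSO and 5.29 to 6.55 with BCT, and its part in the results was not tested.

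All 9 NMD factor genes had higher mean FPKM in BCT-treated cells, and 8 passed the FDR. UPF3B (1.85-fold) and SMG9 (2.25-fold) also passed the fold threshold, and none was called lower. Of the 9 genes, 2 were called higher, where 13.9% of all tested genes were called higher, 17.8% lower and 31.6% in either direction. The FDR alone was passed in the upward direction by 8 of the 9, where 39.3% of all tested genes passed it upward, 42.8% downward and 82.1% in either direction. In 9 of 9 every BCT sample lay above every DMSO sample, where the groups were apart in this way in 41.0% of all tested genes and in the opposite way in 44.3%. The median log2 fold change was 0.47 over the 9 genes and -0.038 over all tested genes. Summed over the 9 genes, the level was 160 to 169 FPKM with DMSO and 228 to 243 FPKM with BCT.

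**Figure D1:**
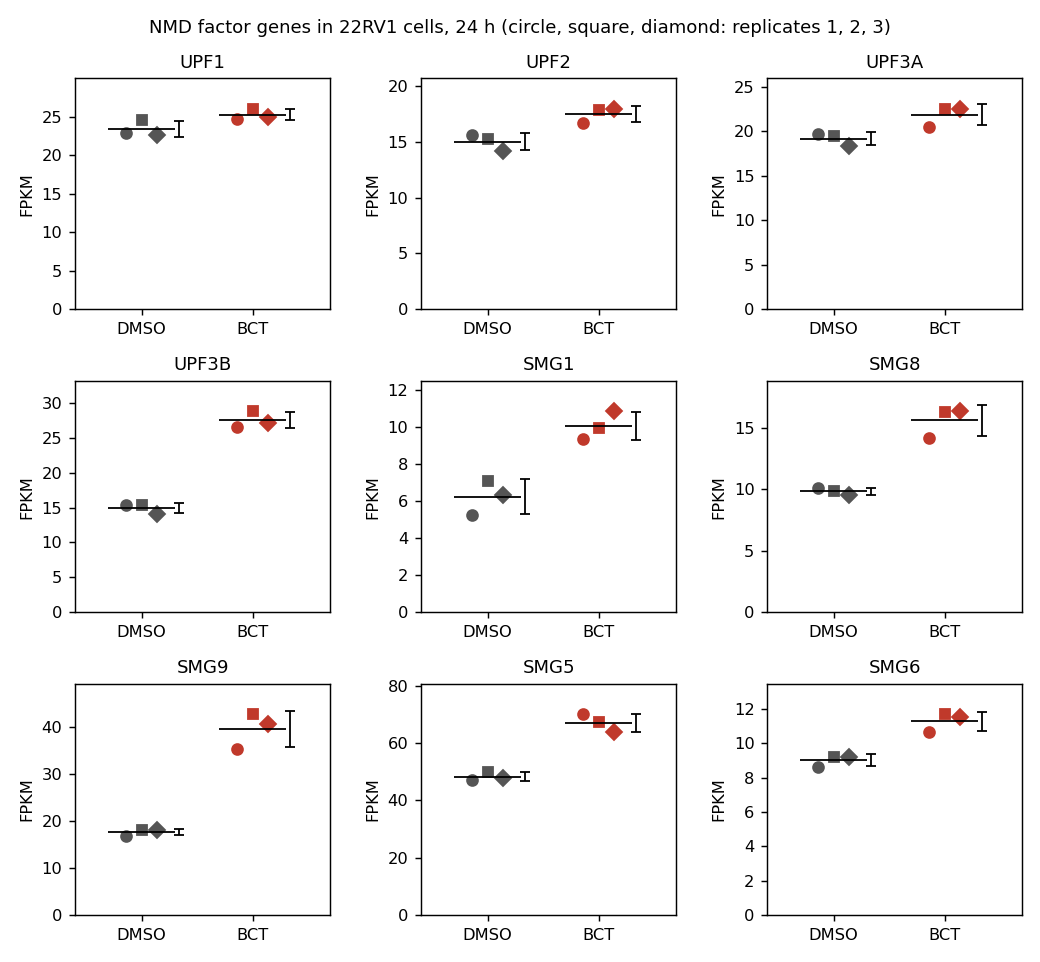
FPKM of the 9 NMD factor genes in each sample, with DMSO in grey and BCT in red, one panel per gene with its own y axis from 0. Circles, squares and diamonds are replicates 1, 2 and 3, horizontal lines are means and brackets are the SD (n = 3). The groups are far apart for SMG9 (17.6 and 39.5 FPKM) and close for UPF1 (23.4 and 25.2 FPKM).

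The promoters of UPF3B and SMG9 are shown because these were the genes called higher. Each is the 250 bases before the transcription start in RefSeq on GRCh38.p14, read 5′ to 3′ on the gene's strand. UPF3B lies at chrX:119852964-119853213 and SMG9 at chr19:43754963-43755212, both on the minus strand. Capitals mark every match, on either strand, to the motifs searched: the palindrome CTCGCGAG, TGACGTCA (the cyclic AMP response element), CACGTG (the E-box), GGGCGG (the GC box), CCAAT, and TGATGCAA (a C/EBP-ATF element).
UPF3B: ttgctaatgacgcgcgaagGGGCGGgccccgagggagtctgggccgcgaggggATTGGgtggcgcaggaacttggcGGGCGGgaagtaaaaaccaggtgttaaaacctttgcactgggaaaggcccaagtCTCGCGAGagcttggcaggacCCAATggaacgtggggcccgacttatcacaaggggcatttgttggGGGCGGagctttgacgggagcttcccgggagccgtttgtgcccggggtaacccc
SMG9: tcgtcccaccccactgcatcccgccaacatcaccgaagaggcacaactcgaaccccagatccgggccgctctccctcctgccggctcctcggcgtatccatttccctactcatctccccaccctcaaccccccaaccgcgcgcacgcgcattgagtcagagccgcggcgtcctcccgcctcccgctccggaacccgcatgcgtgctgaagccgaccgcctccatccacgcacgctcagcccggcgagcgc

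The UPF3B promoter held the palindrome CTCGCGAG 120 bases before the start, as did 0.87% of all 35116 RefSeq promoters of this length. UPF3B also held the GC box at 231, 174 and 54 bases before the start and CCAAT at 99 bases before it, with CCAAT on the other strand at 197. The GC box was in 42.64% and CCAAT in 32.01% of all promoters. The SMG9 promoter held none of the motifs and was 68.8% G and C, against 62.8% for UPF3B.

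RefSeq promoters were matched for 8 of the 9 genes, in 15 windows, and SMG8 was not matched. Of the 8, CTCGCGAG was found for UPF3A and UPF3B (3 of 15 windows, 0.87% of all promoters). The E-box was found for SMG6 and UPF2 (2 of 15 windows, 6.34% of all promoters). CCAAT was found for SMG5, UPF1, UPF2 and UPF3B (5 of 15 windows, 32.01% of all promoters). The GC box was found for 7 of the 8 genes (10 of 15 windows, 42.64% of all promoters). No match to TGACGTCA or TGATGCAA was found, and these were in 1.65% and 0.77% of all promoters. The palindrome was added to the motifs after the promoters had been read.

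UPF1 is the helicase on which every branch of NMD depends (hg19 chr19:18942744-18979041). It was at 22.9, 24.6 and 22.7 FPKM in the DMSO samples and 24.7, 26.1 and 24.9 FPKM in the BCT samples. The lowest BCT sample lay just above the highest DMSO sample, so the groups came close without overlapping. The log2 fold change was 0.11 (95% interval -0.01 to 0.23, limma adjusted p = 0.084), and UPF1 was the one NMD factor gene that did not pass the FDR.

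UPF2, the adaptor that joins UPF1 to UPF3 proteins (chr10:11962021-12085169), was at 15.7, 15.2 and 14.2 FPKM in the DMSO samples and 16.7, 17.8 and 18.0 FPKM in the BCT samples. All BCT samples were above all DMSO samples by a small margin. The log2 fold change of 0.22 (standard error 0.06) passed the FDR (limma adjusted p = 0.0084) but not the fold threshold.

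UPF3A and UPF3B are paralogs that bridge the exon junction complex. UPF3A, the weaker activator of NMD, lies at chr13:115047059-115071291 and was at 19.7, 19.5 and 18.4 FPKM in the DMSO samples and 20.5, 22.6 and 22.5 FPKM in the BCT samples. Its BCT replicate 1 stood close to the DMSO samples, and the log2 fold change was 0.19 (limma adjusted p = 0.017), which was not called. UPF3B, on the X chromosome at chrX:118967989-118986991, was at 15.3, 15.3 and 14.1 FPKM in the DMSO samples and 26.7, 28.9 and 27.2 FPKM in the BCT samples. The groups were far apart compared with the spread within each. UPF3B rose with a log2 fold change of 0.88 (95% interval 0.75 to 1.01, limma adjusted p = 2.6e-06). This value lies close to the fold threshold, and the call was lost without DMSO replicate 3 (0.84), without BCT replicate 2 (0.85) and with a pseudocount of 1 FPKM (0.84).

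The ratio of UPF3A to UPF3B within a sample does not depend on scaling by a factor. It was 1.27 to 1.3 with DMSO and 0.77 to 0.827 with BCT, so that the more abundant paralog by FPKM was UPF3A in every DMSO sample and UPF3B in every BCT sample. The mean log2 ratio was 0.36 ± 0.0155 with DMSO and -0.33 ± 0.0534 with BCT (SD, n = 3 each), a difference of -0.69. The two-sided exact permutation test gave p = 0.1, the smallest that 3 samples against 3 allow, and 0.133 after adjustment over 4 pairs of NMD factor genes.

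SMG1, the kinase that phosphorylates UPF1, lies at chr16:18816175-18937726. It was at 5.22, 7.10 and 6.32 FPKM in the DMSO samples and 9.34, 9.93 and 10.8 FPKM in the BCT samples. DMSO replicate 1 was the lowest sample, and the DMSO SD of 0.941 FPKM was large beside the mean of 6.21 FPKM. The log2 fold change was 0.69 (95% interval 0.43 to 0.95, limma adjusted p = 0.00045), below the fold threshold, and it was 0.57 without DMSO replicate 1.

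SMG1 has pseudogene copies on chromosome 16 that can share its reads. Of 15963 windows of 100 bases in the SMG1 transcript, 11.5% also occur in transcripts of 20 other genes. The 5 SMG1 pseudogenes with a row, SMG1P1, SMG1P2, SMG1P3, SMG1P5 and SMG1P7, summed to 3.31 to 3.52 FPKM with DMSO and 6.20 to 8.03 FPKM with BCT. Their BCT samples were above their DMSO samples in 5 of 5, where the groups were apart in this way in 41.0% of all tested genes. That share covers only genes whose mean reached 1 FPKM, which SMG1P1, SMG1P2 and SMG1P3 did not. All 5 share stretches with SMG1, so they are not separate observations. SMG1P1, SMG1P2 and SMG1P3 had BCT means 2.33, 4.13 and 3.63 times their DMSO means. Only SMG1P5 and SMG1P7 were high enough to be tested, with log2 fold changes of 0.57 and 0.73, and neither was called. SMG1P2 and SMG1P5 carry the same coordinates in the deposited tables, so their values and the division of reads between SMG1 and its copies are uncertain.

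SMG8 and SMG9 bind SMG1 and restrain its activity. SMG8 (chr17:57287371-57292611) was at 10.1, 9.85 and 9.51 FPKM in the DMSO samples and 14.2, 16.3 and 16.3 FPKM in the BCT samples. BCT replicate 1 was lower than the other BCT samples but well above the DMSO samples, and the log2 fold change was 0.66 (95% interval 0.50 to 0.82, limma adjusted p = 3.2e-05), which was not called. SMG9 (chr19:44235301-44259142) was at 16.8, 18.0 and 17.9 FPKM in the DMSO samples and 35.2, 42.6 and 40.6 FPKM in the BCT samples. Every BCT sample stood far above every DMSO sample. SMG9 rose with a log2 fold change of 1.16 (95% interval 0.98 to 1.33, limma adjusted p = 2.6e-06), the largest among the 9 and at percentile 92.0 of all tested genes. The ratio of SMG8 to SMG9 was 0.53 to 0.598 with DMSO and 0.382 to 0.402 with BCT, a difference of -0.50 in mean log2 ratio (exact permutation p = 0.1, adjusted 0.133).

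SMG5 and SMG6 act after UPF1 is phosphorylated. SMG5, an adaptor that binds phosphorylated UPF1, lies at chr1:156219015-156252620 and was at 47.1, 50.1 and 47.7 FPKM in the DMSO samples and 70.1, 67.3 and 64.0 FPKM in the BCT samples. It was the only NMD factor gene in which BCT replicate 1 was not the lowest BCT sample, a position that replicate held in 8 of 9 here and in 66.0% of the 6134 tested genes with higher means in BCT. The log2 fold change of SMG5 was 0.47 (95% interval 0.35 to 0.60, limma adjusted p = 4.9e-05). SMG6, the endonuclease that cuts the target near the stop codon, lies at chr17:1963133-2207069 and was at 8.60, 9.19 and 9.22 FPKM in the DMSO samples and 10.6, 11.7 and 11.5 FPKM in the BCT samples. Its groups were apart by less than those of SMG5, with a log2 fold change of 0.32 (limma adjusted p = 0.0012). Neither gene was called. The mean log2 ratio of SMG5 to SMG6 was 2.41 with DMSO and 2.56 with BCT (exact permutation p = 0.1, adjusted 0.133), and that of UPF1 to UPF2 was 0.64 and 0.53 (p = 0.3, adjusted 0.3).

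**Figure D2:**
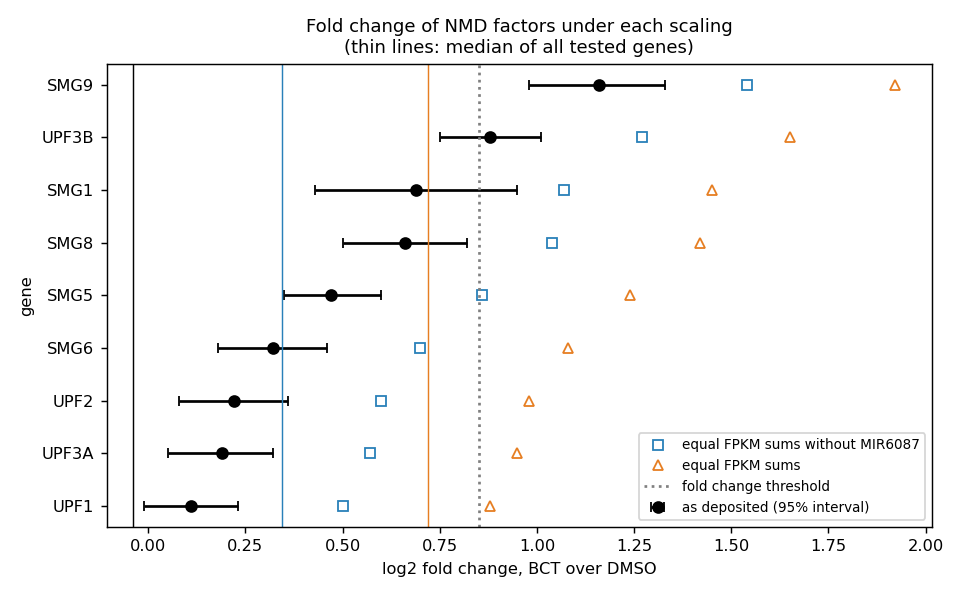
Log2 fold change of each NMD factor gene, BCT over DMSO, on the log2(FPKM + 0.1) scale. Filled circles are values as deposited with 95% intervals from limma, open squares equal FPKM sums without MIR6087 and open triangles equal FPKM sums. Thin lines are medians of all tested genes under each scaling, and the dotted line is the threshold of 0.85. As deposited, UPF3B (0.88) and SMG9 (1.16) lie past the threshold, and the interval of UPF1 (-0.01 to 0.23) includes 0. With equal sums all 9 lie past it (0.88 to 1.92).

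**Figure D3:**
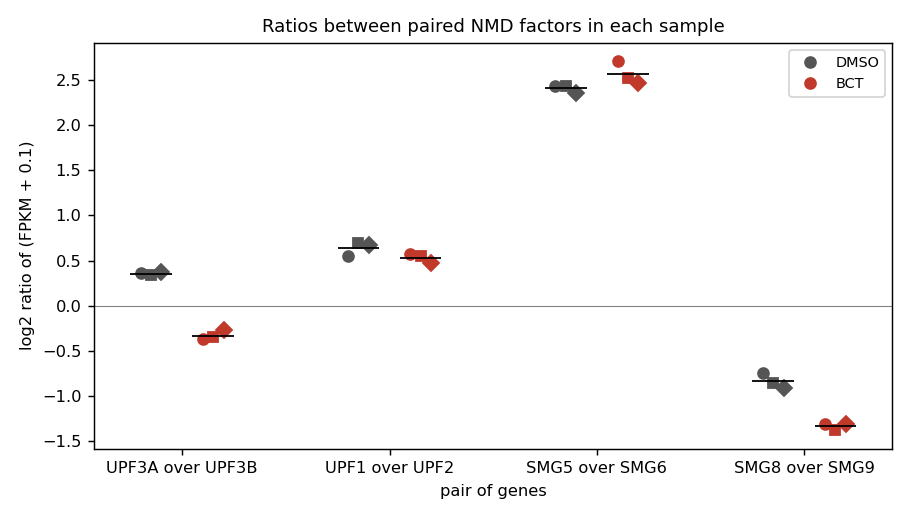
Log2 ratio of 2 NMD factor genes within each sample, with DMSO in grey and BCT in red (n = 3 each). The ratio of UPF3A to UPF3B goes from a mean of 0.36 with DMSO to -0.33 with BCT, and that of SMG8 to SMG9 from -0.84 to -1.33.

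The order of the levels differed between the groups. With DMSO, SMG5 was highest (48.3 FPKM), followed by UPF1, UPF3A, SMG9, UPF2, UPF3B, SMG8, SMG6 and SMG1 (6.21 FPKM). Neighbours in this order did not overlap, except UPF2 and UPF3B. With BCT, SMG5 was again highest (67.1 FPKM), and SMG9 and UPF3B stood above UPF1, UPF3A and UPF2. SMG8, SMG6 and SMG1 remained the lowest, and the ranges of SMG6 and SMG1 overlapped.

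These levels rest on reads that are unique to a gene to different degrees. In GENCODE transcripts, no window of 100 bases of UPF1, UPF2, UPF3B, SMG5 or SMG9 was shared with another gene. For UPF3A 25.9% of windows were shared with its pseudogenes UPF3AP1 and UPF3AP2, for SMG8 10.5% with an overlapping gene, and for SMG6 28.6% with HIC1, a gene on the opposite strand. The library kit does not mark strand. In the deposited annotation HIC1 ends before SMG6 begins, and it was listed at 0.475 ± 0.0248 FPKM with DMSO and 0.556 ± 0.158 with BCT (SD, n = 3 each).

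Features known to mark an mRNA for NMD were read from the canonical transcript of each gene and of the 11021 tested genes that have one. The 3′ untranslated part ran from 228 bases in SMG8 to 4709 in SMG1, and it was longer than the median of 1320 bases in 5 of the 9. SMG9 had 3613 bases, but its GENCODE model runs 3166 bases past the 3′ end in the deposited annotation. An upstream open reading frame was found in SMG5 and SMG9, 2 of the 9, against 33.9% of all. A splice junction more than 50 bases after the stop codon was found in 0 of the 9 and in 0.64% of all. The number of exons ran from 4 in SMG8 to 63 in SMG1, and 8 of the 9 had more than the median of 9.

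The genes most like UPF3B and SMG9 over the 6 samples were chosen by the smallest distance between log2(FPKM + 0.1) values centred on the DMSO mean. For UPF3B this was TFIP11, at a distance of 0.0368, which went from 11.3 ± 0.546 to 20.7 ± 0.945 FPKM. For SMG9 it was C9orf156, at a distance of 0.0569, which went from 6.27 ± 0.193 to 13.9 ± 1.36 FPKM (SD, n = 3 each).

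The other factors of the pathway were counted from lists written by hand, with earlier results of these data known. For comparison, 13.9% of all tested genes were called higher and 17.8% lower. Of 7 other NMD factors, NBAS, which takes part in NMD at the endoplasmic reticulum, rose from 5.05 ± 0.476 to 9.99 ± 0.703 FPKM, and the other 6 were not called. Without BCT replicate 1, 2 of the 7 were called higher, and 0 with limma's treat, which tests against the fold threshold. The list's median was 0.53, with PNRC2, a decapping coactivator, at 0.80, DHX34, a helicase that binds the SMG1 complex, at -0.23 and MOV10, a helicase bound to UPF1, at -0.58. Of the 10 genes of the exon junction complex, 0 were called in either direction, while the FDR alone was passed by 6 upward and 3 downward, where 82.1% of all tested genes passed it in either direction. The median was 0.30, from -0.48 for the core helicase EIF4A3 and -0.39 for RNPS1 to 0.61 for the core protein CASC3 and 0.70 for PYM1, which takes the complex off mRNA.

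At the step before NMD, 0 of 7 tested genes of translation termination and cap binding were called higher, and 1 was called lower. The shares of all tested genes were 13.9% and 17.8%. PABPC1, the poly(A)-binding protein that favours normal termination, fell from 397 ± 5.97 to 180 ± 4.43 FPKM (log2 fold change -1.14), and its paralog PABPC4 was at -0.64 without being called. The release factor ETF1 was at 0.42 and the cap-binding NCBP2 at 0.21, and the list's median was -0.17. GSPT2 and CTIF were too low to be tested, and GSPT2, a paralog of the release factor GSPT1, was at 0.215, 0.085 and 0.149 FPKM in the DMSO samples and 0.93, 1.12 and 1.41 FPKM in the BCT samples.

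Downstream of SMG5, 4 of 9 genes of decapping and 5′ to 3′ decay were called higher and 1 lower. The shares of all tested genes were 13.9% and 17.8%. The FDR alone was passed by 7 upward and 1 downward, where 39.3% of all tested genes passed it upward and 42.8% downward. The genes called higher were DCP1B (1.25), DCP1A (1.17), XRN1 (0.93), the exonuclease of this route, and EDC3 (0.90), and 2 of them stayed called with treat. DCP2, the decapping enzyme, fell from 9.60 ± 0.295 to 4.51 ± 0.29 FPKM, while its activator DCP1A went from 13.3 ± 0.834 to 30.0 ± 2.0 FPKM. PATL1 was at -0.10, and the list's median was 0.25. Of 13 deadenylation genes, 2 were called higher, CNOT10 (1.28) and CNOT4 (1.08), and 4 without BCT replicate 1. The FDR alone was passed by 6 upward and 3 downward, with CNOT6 at -0.58, CNOT8 at -0.29 and a median of 0.11. Of 14 genes of the exosome and SKI complex, which degrade the 5′ fragment left by SMG6, 3 were called higher and 1 lower. None of the 3 was called with treat. The FDR alone was passed by 9 upward and 3 downward. EXOSC9 and EXOSC10 were both at 1.0 and TTC37 at 0.92, EXOSC5 was at -1.13 and EXOSC2, not called, at -0.57, and the median was 0.32.

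SMG1 belongs to the PIKK family of large kinases. Of the 6 PIKK genes, 0 were called, where 13.9% of all tested genes were called higher and 17.8% lower. The PIKK log2 fold changes were 0.69 for SMG1, 0.36 for TRRAP, 0.28 for ATR, 0.24 for ATM, 0.14 for MTOR and 0.14 for PRKDC. Of 7 genes that assemble these kinases, TELO2, a subunit of the TTT complex, fell from 20.4 ± 0.18 to 8.27 ± 1.22 FPKM (log2 fold change -1.30). The other TTT subunits TTI1 and TTI2 were at -0.66 and 0.39, the R2TP subunit RPAP3 was at 0.43, and none of these was called.

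Transcripts known as NMD targets were read beside the factors. Of 12 protein-coding ones, 10 were called higher and 0 lower, and 12 passed the FDR upward. Of all tested genes, 13.9% were called higher and 39.3% passed the FDR upward. The list was chosen with earlier results of these data known, so its counts are not an independent comparison with these shares. The list's median was 1.35. ATF3 rose from 22.6 ± 1.77 to 200 ± 32.4 FPKM (log2 fold change 3.13) and IFRD1 from 20.9 ± 1.33 to 110 ± 13.2 FPKM (2.38), while TBL2 (0.82) and NAT9 (0.74) were not called. Several genes of this list, among them ATF3, DDIT3 and CARS, are also known targets of the stress-response transcription factor ATF4, which is itself on the list. Whether the higher values of this list came through NMD or through ATF4 was not tested. Of 8 noncoding host genes of small nucleolar RNAs, whose spliced transcripts are known NMD targets, 3 were called higher and 2 lower. The FDR alone was passed by 5 upward and 2 downward. Over all tested genes, 13.9% were called higher and 17.8% lower. SNHG12 (2.66), SNHG15 (1.42) and ZFAS1 (1.22) rose, and SNHG16 (-1.49) and SNHG5 (-1.0) fell. The median was 0.79.

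The direction of the 9 genes did not turn under any scaling tried, but their size moved with it. Each scaling moved the median of all tested genes up, and all 9 started above 0, so a turn was not put to the test. Forcing equal FPKM sums moved the median over all tested genes up by 0.758 in log2 fold change. It called 9 of the 9 higher, with values from 0.88 to 1.92, where 5614 of the 12729 tested genes were called higher. Equal sums without MIR6087 raised that median by 0.382 and called 5, adding SMG1, SMG8 and SMG5 to UPF3B and SMG9. Here 3370 of the 12729 tested genes were called higher. Relative to the median of all genes, the median of the 9 was higher by 0.42 to 0.57 under every setting tried. Scaling by a factor per sample largely cancels in this difference, so it could not change it much. With equal sums, the falls of PABPC1, DCP2, EXOSC5, TELO2, SNHG5 and SNHG16 were no longer called, and the negative values given for genes not called, such as EIF4A3, RNPS1, MOV10 and PABPC4, turned positive.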

How the data were processed

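The authors trimmed reads with Trimmomatic 0.38, aligned them to hg19 with HISAT2 and deposited one FPKM value per gene and sample. Per the labels, CASAVA and HTSeq were also used, and the study's methods name StringTie. The gene annotation is not given in the sources used here. Libraries came from total RNA with the TruSeq RNA kit v2. Values were used as deposited.

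Log2(FPKM + 0.1) of the 12729 genes whose mean reached 1 FPKM was tested with limma 3.58.1 (R 4.3.3; variances moderated along the mean level, Benjamini-Hochberg adjustment). Ratios within samples were tested by exact permutation. Alternatives covered the pseudocount, the filter, other scalings, the variance model, the FDR, a test against the fold threshold, a replicate block and each sample left out. Tested on simulated data with known changes, the fit recovered 197 of 200 genes shifted by 1.5 log2 units, and 3 of 12529 unchanged genes were called. The simulation held no shifts near the fold threshold and no differences in scaling between samples, so it does not bear on either.

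The NMD factor genes and the lists were chosen with earlier results of these data known, and 1 gene of a list is not reported here. Named genes were all 9, the 2 largest rises and 2 largest falls of each list, every gene of lists of up to 6, and called genes of a list where these were 3 or fewer. The genes nearest to UPF3B and SMG9 and the SMG1 pseudogenes were also named. Outside this rule, GSPT1, GSPT2, CTIF, DDIT3, CARS, ATF4, TBL2, NAT9, EDC3, XRN1, TTC37, ZFAS1, COL1A1, MIR6087 and HIC1 were named after their values were seen. Positions are those of the deposited files with 1 added to the start. Promoters came from RefSeq, and transcript models from GENCODE lifted to GRCh37.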

Additional observations from a re-analysis of the deposited data

How the results depend on the processing

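FPKM values hold no counts, so the depth behind each value is unknown, and 3 samples per group limit the precision. Over 20 alternative settings the 9 NMD factor genes kept their direction. No scaling among these settings moved the median of all tested genes down. Of the single values of the 9 genes under the alternatives, 166 stayed on the same side of the threshold, 10 gained a call and 4 lost one. SMG9 kept its call under every setting. The 40 values of the pair ratios under the alternatives kept their direction.

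Of the 9 genes, 2 were called as reported, 1 with a pseudocount of 1 FPKM and 1 with limma's test against the fold threshold (treat). With equal FPKM sums 9 were called, with equal sums without MIR6087 5, and with a sample left out 1 to 2. The lost calls were those of UPF3B. Over all genes, 4027 were called, 6282 with equal sums (668 lower, 5614 higher) and 2425 with treat (1392 lower, 1033 higher). Equal sums without MIR6087 gave 1208 lower and 3370 higher, no filter on low values 2657 higher, and a mean of at least 5 FPKM 1150 higher.

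Genes of the other lists that turned upward with equal sums were CNOT6 (0.19), CNOT8 (0.48), DHX34 (0.53), EIF4A3 (0.29), EXOSC2 (0.19), MOV10 (0.17), PABPC4 (0.13), PATL1 (0.67), RNPS1 (0.38) and TTI1 (0.1). Without MIR6087 these were CNOT8 (0.09), DHX34 (0.16) and PATL1 (0.29). The genes called lower that lost their calls with equal sums were PABPC1 (-0.37), DCP2 (-0.32), EXOSC5 (-0.36), TELO2 (-0.54), SNHG5 (-0.23) and SNHG16 (-0.73), and quantile normalization ended those of PABPC1 (-0.77) and SNHG5 (-0.59). Equal sums without MIR6087 ended those of PABPC1 (-0.76), DCP2 (-0.69), EXOSC5 (-0.74) and SNHG5 (-0.61). With equal sums the genes called higher went from 0 to 6 in the exon junction complex, 1 to 5 among other NMD factors, 0 to 3 in termination, 4 to 7 in decapping, 2 to 7 in deadenylation, 3 to 9 in the exosome and SKI complex, 0 to 6 among PIKK kinases, 0 to 3 in PIKK assembly and 3 to 6 among snoRNA hosts. Without MIR6087 they were 3 in the exon junction complex, 5 among other NMD factors, 5 in deadenylation, 1 among PIKK kinases and 5 among snoRNA hosts. Quantile normalization gave 1 in the exon junction complex, 2 among other NMD factors and 5 among snoRNA hosts, and no filter gave 1 in termination. Treat left 0 among other NMD factors, 2 in decapping, 1 in deadenylation and 0 in the exosome and SKI complex. Both scalings raise every fold change by construction. With a sample left out, PRKDC ran from -0.00063 (without DMSO replicate 1) to 0.28.

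Replicate numbers were shared between the groups, but the deviations of same-numbered samples correlated at only 0.116, 0.0328 and 0.0342, and DMSO replicate 2 correlated best with BCT replicate 3 (0.074), so the numbers were not taken to pair samples. With the replicate block, 4033 genes and 2 of the 9 were called.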

Other observations

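SMG1 was lowest in DMSO replicate 1 among the DMSO samples, and this held for 6 of the 6 PIKK genes, whose transcripts are 8158 bases or longer. PRKDC was at 15.0, 22.1 and 18.3 FPKM and TRRAP at 7.49, 9.64 and 8.45 FPKM in DMSO replicates 1, 2 and 3. Among the NMD factor genes DMSO replicate 1 was the lowest of the DMSO samples in 4 of 9, and among all tested genes in 28.6%. Without DMSO replicate 1, the log2 fold changes were 0.57 for SMG1, 0.27 for TRRAP, 0.24 for ATR, 0.18 for ATM, 0.10 for MTOR and -0.00063 for PRKDC.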
